A study of Mus musculus with 54 samples.

Results

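The mitochondrial ribosomal protein genes were read in the liver of high-fat-fed male mice that had eaten di-isononyl phthalate (DINP), a plasticizer. Members were the entries of the deposited table whose symbol begins with Mrpl or Mrps followed by a number and at most 1 letter. The rule took 78 of 20162 entries, and all 78 were among the 11431 features with a mean of at least 1 that were tested. Pseudogene symbols ending in -ps were not taken. By the part of the ribosome, 51 members were grouped in the large subunit and 25 in the small subunit. The other 2 (Mrps28 and Mrps36), which carry small-subunit symbols, were set apart as other or unsettled.

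Mitochondria keep a small genome of their own, and its messages are read inside the organelle by a separate ribosome, the mitoribosome. Its RNA comes from mitochondrial DNA, but every one of its proteins is encoded in the nucleus, made in the cytosol and imported. Some of the proteins have bacterial relatives, and others occur only in mitochondria. The mitoribosome makes the core membrane subunits of the respiratory chain and the ATP synthase, on which hepatocytes depend for oxidizing fatty acids.

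Liver RNA of 54 wild-type C57BL/6J males was sequenced from the 3′ end of polyadenylated transcripts. All mice received the high-fat diet from 8 weeks of age, and DINP was given by mouth in gelatin pellets for 20 weeks. The groups were 14 control mice (0 mg/kg bw/d), 13 mice at 1.5, 13 mice at 15 and 14 mice at 150 mg/kg bw/d, each library being 1 mouse. Values are scaled TPM (abundance per transcript length as a share of the library, which the authors also scaled between samples), fold changes are differences of the mean log2(value + 1), and a gene was called higher or lower with an adjusted p under 0.05 (limma, Benjamini-Hochberg over all features tested).

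Upstream sequences are shown for 4 members that stand for the directions found: Mrpl42 and Mrpl32, which were called higher at 15 mg/kg bw/d, Mrpl34, called lower there, and Mrpl52, called lower at 1.5 mg/kg bw/d. Each is the 250 bases before the annotated start, 5′ to 3′ on the gene's strand, from RefSeq on GRCm38.p6, with matches to the ETS family motif, the YY1 motif and the NRF1 motif in capitals.
Mrpl42, chr10:95501950-95502199, minus strand: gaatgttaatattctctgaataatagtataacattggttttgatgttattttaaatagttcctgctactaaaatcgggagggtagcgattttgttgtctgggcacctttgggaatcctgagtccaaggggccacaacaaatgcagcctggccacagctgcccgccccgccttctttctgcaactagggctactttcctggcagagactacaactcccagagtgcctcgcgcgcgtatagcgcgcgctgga
Mrpl32, chr13:14613038-14613287, minus strand: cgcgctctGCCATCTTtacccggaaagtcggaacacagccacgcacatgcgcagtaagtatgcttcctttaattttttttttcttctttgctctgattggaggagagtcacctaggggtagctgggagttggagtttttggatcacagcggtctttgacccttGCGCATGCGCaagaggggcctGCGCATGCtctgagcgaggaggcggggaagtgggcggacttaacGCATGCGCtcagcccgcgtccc
Mrpl34, chr8:71464676-71464925, plus strand: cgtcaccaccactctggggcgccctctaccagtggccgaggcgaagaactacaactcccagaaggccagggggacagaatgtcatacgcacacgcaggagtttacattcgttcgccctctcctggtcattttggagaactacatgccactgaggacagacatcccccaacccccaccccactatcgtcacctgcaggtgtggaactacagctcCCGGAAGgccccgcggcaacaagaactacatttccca
Mrpl52, chr14:54426659-54426908, plus strand: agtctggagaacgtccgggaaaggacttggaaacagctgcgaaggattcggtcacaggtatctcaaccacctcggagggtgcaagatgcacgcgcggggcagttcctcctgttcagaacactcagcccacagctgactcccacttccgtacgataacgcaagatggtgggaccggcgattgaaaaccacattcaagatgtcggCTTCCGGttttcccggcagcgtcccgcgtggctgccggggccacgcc

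The capitals mark CCGGAAG (ETS family, which includes GABP), AAGATGGC (YY1) or GCATGCGC (NRF1), on either strand. No such word lies in the Mrpl42 stretch shown, although a YY1 word lies shortly after its annotated start, beyond the printed bases. The Mrpl32 stretch holds a YY1 word and NRF1 words on both strands, which overlap where the palindrome is complete. RefSeq windows of 300 bases (250 before and 50 after the start) were matched for 69 of the 78 members, as 75 windows. The ETS word stood in 26 of the 75 member windows (34.7%), against 8.86% of all 32851 windows and 18.1% of the 10739 windows of tested features. The YY1 word stood in 16.0% of member windows, 2.75% of all and 4.59% of those of tested features. For NRF1 the shares were 10.7%, 2.71% and 5.23%. An E-box (CACGTG, 9.33% of member windows against 9.97% of those of tested features), a CCAAT box (CCAAT, 40.0% against 37.6%) and a GC box (GGGCGG, 52.0% against 61.4%) were searched too. A match is a run of letters and not a bound site.

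The members were expressed in all 54 livers, none being at 0 in any mouse. Their median mean level was 26.8 scaled TPM, against 7.45 for all features tested. Mrps21, a small-subunit protein with a bacterial relative, had the highest mean (362), followed by Mrps12, the small-subunit protein at the decoding centre (298), and Mrpl34, a short large-subunit protein (270.2). The lowest means were those of Mrpl19 (2.69), Mrpl9 (3.26) and Mrps30 (6.37), the last a large-subunit protein in spite of its symbol. In control mice the SD of a member on the log2 scale had a median of 0.216 (0.0936 to 0.548), against 0.268 for the 8446 features in the same range of mean level. Those features were not matched to the members on level within the range, so the 2 medians are not compared at equal level.

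Mrps21 had 307, 349 and 415 scaled TPM as its lowest, median and highest control value, and its medians in order of dose were 361, 373 and 369.5. All 4 groups overlapped, and no dose was called against control (adjusted p = 0.720, 0.718 and 0.676). The low-level members Mrpl19, Mrpl9 and Mrps30 were likewise not called at any dose, with log2FC from -0.02 to 0.19.

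Of the 54 libraries, 8 stood apart: 6 at 15 mg/kg bw/d (replicates 4 to 9), control replicate 1 and replicate 10 at 150 mg/kg bw/d. They lay beyond the widest gap of the first principal component of 6856 features, computed without the members (scores of 22.0 to 44.3, against -20.7 to 7.61 in the other 46), and none was at 1.5 mg/kg bw/d. In these 8 the mean of the cytosolic ribosomal protein genes was 0.35 to 0.77 above the control mean on the log2 scale, and in the others -0.31 to 0.25. Unlike the members, these genes were among the features of the component. Their shift is therefore partly built into the choice of the 8. The mean of the 78 members was 0.08 to 0.39 above control in the 8, and -0.18 to 0.11 in the others. Sums of values were 747258 to 1076439 per library, the lowest being control replicate 8. Calls against control are therefore given with and without them; why they stood apart was not tested.

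Hepatocyte markers summed to 23961 to 45507 scaled TPM in control mice and 30003 to 48611 at 15 mg/kg bw/d, and the same sums overlapped at the other doses (31628 to 45736 at 1.5 and 33173 to 45099.5 at 150 mg/kg bw/d). Alb, Apoa1 and Ttr, with means of 19797, 8385 and 5929 scaled TPM, made up most of these sums. At 15 mg/kg bw/d 1 of 10 hepatocyte markers was higher (Ttr), 1 of 10 Kupffer cell markers was lower (Csf1r), and 1 of 8 endothelial markers was lower (Pecam1), each of which was not called without the 8 libraries. In that fit Asgr1 of the hepatocyte markers was higher (log2FC 0.40, adjusted p = 0.00511) and Pecam1 lower (-0.34, adjusted p = 0.0283) at 1.5 mg/kg bw/d. The Kupffer cell sums ran from 175 to 539 in control mice and 149 to 397 at 15 mg/kg bw/d, and the endothelial sums from 87.1 to 112 and 69.2 to 112. Of the tested markers of stellate cells (6), cholangiocytes (3), lymphocytes (2), erythroid cells (5) and adipocytes (2), none was called at any dose in either fit, and none of the markers in the table was at 0 in all mice. The part of these cells in the results was not tested, and in bulk tissue fewer cells of a type cannot be told from less RNA per cell.

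**Figure D1:**
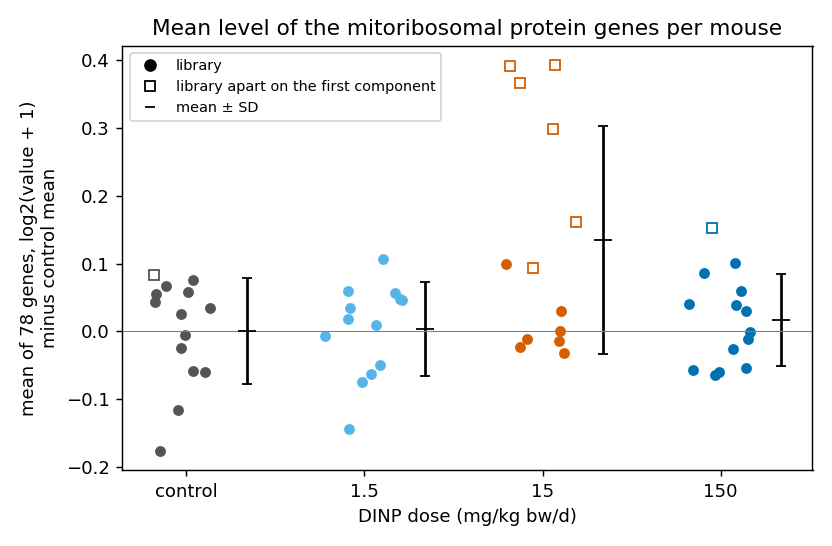
Mean of the 78 members in each mouse, as the difference in log2(value + 1) from the control mean, against the DINP dose in mg/kg bw/d. Open squares are the 8 libraries that stand apart, filled points the other 46, and bars the mean ± SD of all mice of a group; at 15 mg/kg bw/d 5 of the 6 open squares lie above every filled point of the group.

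At 15 mg/kg bw/d the family lay above control. The mean of the members per mouse was 0.13 ± 0.17 above the control mean on the log2 scale (SD, n = 13), against 0.00 ± 0.08 in control mice (n = 14), 0.00 ± 0.07 at 1.5 (n = 13) and 0.02 ± 0.07 at 150 mg/kg bw/d (n = 14). In the plot of this mean by mouse the spread at 15 mg/kg bw/d is the widest of the 4 groups. The 7 mice of that group outside the 8 libraries averaged 0.01 ± 0.05 and ranged from -0.03 to 0.10, a difference from control smaller than the SD of the control mice.

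At 15 mg/kg bw/d 16 members (20.5%) were higher and 3 (3.85%) lower, against 7.57% and 6.61% of all features tested. Of the 78 members 59 had a log2FC above 0, with a median of 0.12, against 5698 of 11431 features and a median of 0.00. In the 46 other libraries 3 members were higher and 3 lower, where 2.77% and 2.55% of all features were called, and the median fell to 0.02. Large-subunit genes made up 14 of the 16 (of 51 large-subunit genes tested, 2 being lower), and Mrps28 and Mrps36 the rest. None of the 25 genes grouped in the small subunit was higher and 1 was lower. Mrps28 and Mrps36, both higher and with small-subunit symbols, were not among these 25, and counting them there would change the split. The medians were 0.13 for the large and 0.05 for the small subunit as grouped. No test of the difference between subunits was made.

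**Figure D2:**
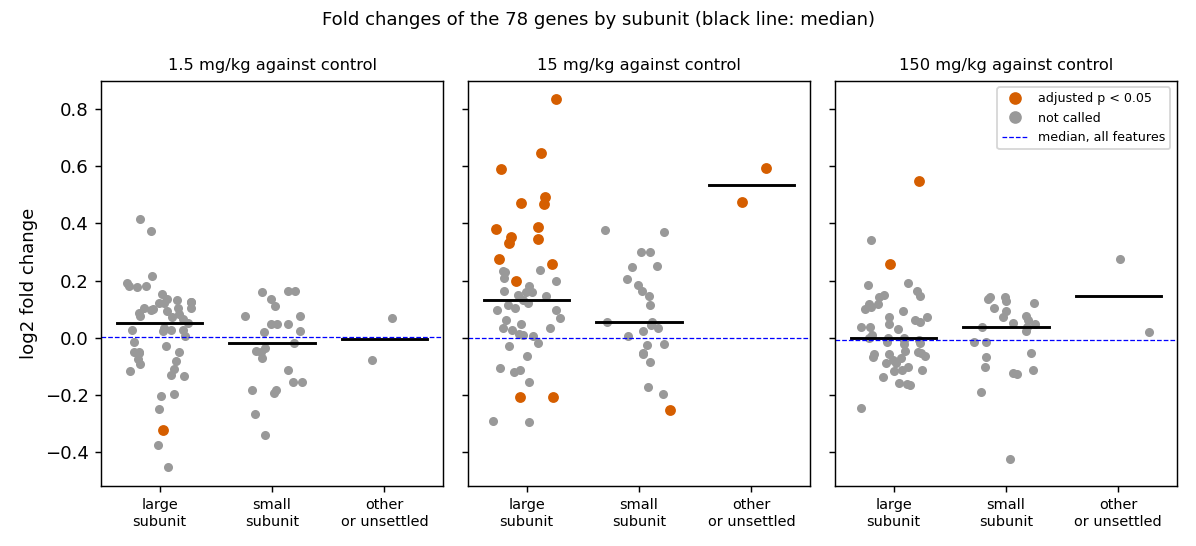
Log2 fold change of each of the 78 members at each dose against control, by subunit, with called genes in orange, black lines at the subunit medians and a dashed line at the median of all features tested. The large-subunit genes called at 15 mg/kg bw/d reach 0.83, whereas none of the 25 genes grouped in the small subunit was called above 0. Mrps28 and Mrps36 are drawn apart from both subunits.

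Mrpl42, a large-subunit protein that occurs only in mitochondria (GRCm38 chr10:95480805-95501940, minus strand), changed most. Its lowest, median and highest values were 33.6, 48.1 and 62.8 in control mice, 35.5, 45.3 and 51.6 at 1.5, 49.9, 72.5 and 144 at 15, and 38.3, 46.1 and 64.0 at 150 mg/kg bw/d. All 13 mice at 15 mg/kg bw/d lay above the control median, although the groups overlapped between 49.9 and 62.8. The log2FC was 0.83 ± 0.12 (SE; adjusted p = 4.86e-06), a 1.78-fold increase. The 6 libraries apart at that dose had 95.5 to 144 and the other 7 had 49.9 to 72.5, and without the 8 libraries the log2FC was 0.44 (adjusted p = 0.00497). Mrpl42 was called under all 12 alternatives and whichever mouse was left out.

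Mrpl13, a bacterial-type protein of the large subunit, had 28.3, 47.0 and 63.3 in control mice (lowest, median, highest) and 40.7, 72 and 114 at 15 mg/kg bw/d. At that dose 11 of 13 mice were above the control median and the ranges overlapped (log2FC 0.65 ± 0.12 SE, adjusted p = 0.000215). Mrpl30, also of bacterial type, had 63.6, 84.0 and 139 in control mice and 82.7, 125 and 257 at 15 mg/kg bw/d (log2FC 0.59 ± 0.13 SE, adjusted p = 0.00144). The 6 libraries apart had 79.6 to 114 of Mrpl13 and 125 to 257 of Mrpl30, where the other 7 mice had 40.7 to 72 and 82.7 to 153. Neither was called without the 8 libraries, with log2FC of 0.34 (adjusted p = 0.112) and 0.23 (adjusted p = 0.193).

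Mrpl41, a mitochondria-specific large-subunit protein, rose from a control median of 25.6 (21.1 to 34.3) to 35.8 (24.4 to 64.2) at the middle dose (log2FC 0.49). Mrpl32, whose precursor is matured by the inner-membrane AAA protease, rose from 19.0 (10.6 to 25.3) to 24.3 (19.0 to 36.1; log2FC 0.47). Mrpl55, assigned to the central protuberance of the large subunit, rose from 19.9 (14.1 to 26.4) to 27.1 (18.1 to 44.2; log2FC 0.47). The ranges of the 3 genes overlapped with control (adjusted p = 0.000836, 0.000808 and 0.00226), and without the 8 libraries none was called (adjusted p = 0.131, 0.124 and 0.192).

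Mrps36, which has also been placed in the 2-oxoglutarate dehydrogenase complex, had 10.7, 17.5 and 24.3 in control mice and 16.3, 23.5 and 41.1 at 15 mg/kg bw/d (log2FC 0.59 ± 0.12 SE, adjusted p = 0.000674). Mrps28 had 36.2, 41.6 and 62.3 in control mice and 36.6, 63.3 and 118 at that dose (log2FC 0.48 ± 0.12 SE, adjusted p = 0.00305). Both ranges overlapped with control, and both calls were lost without the 8 libraries (log2FC 0.32 and 0.15, adjusted p = 0.143 and 0.405). The other 8 members that were higher had log2FC from 0.20 to 0.39. Of these, 2 named after their values were seen were still called without the 8 libraries: Mrpl18, at the central protuberance (log2FC 0.34 and then 0.26, adjusted p = 0.0458), and Mrpl39, a mitochondria-specific protein (0.38 and then 0.38, adjusted p = 0.0201). Of the 16 members higher, 15 had a smaller log2FC without the 8 libraries, and all 16 stayed above 0.

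The 3 members called lower at 15 mg/kg bw/d include some of the most abundant of the family. Mrps12 had 251, 317 and 359 in control mice and 186, 273 and 309 at 15 mg/kg bw/d, with no mouse above the control median (log2FC -0.25 ± 0.07 SE, adjusted p = 0.00632). The 6 libraries apart had 186 to 273 and the other 7 had 248 to 309, and without the 8 libraries the log2FC was -0.09 (adjusted p = 0.463). Mrpl17, of the large subunit, had 80.0, 86.7 and 97.3 in control mice and 64.3, 74.4 and 96.6 at that dose, with 1 of 13 mice above the control median (log2FC -0.21 ± 0.06 SE, adjusted p = 0.0123). Its log2FC without the 8 libraries was -0.18 (adjusted p = 0.125).

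Mrpl34 ran from 231 to 326 in control mice (median 269.96) and from 155 to 347 at 15 mg/kg bw/d (median 243), so that the control range lay inside that of the dose group. Its log2FC was -0.21 ± 0.07 (SE), with an adjusted p of 0.0487, and the call was kept in 9 of 27 leave-one-out fits (adjusted p up to 0.117). It was -0.32 without the 8 libraries (adjusted p = 0.0143). A further 2 members were called lower only in that fit and are named for it: Mrpl28 (log2FC -0.45, adjusted p = 0.0280) and Mrpl44, near the exit tunnel (-0.46, adjusted p = 0.0381).

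**Figure D3:**
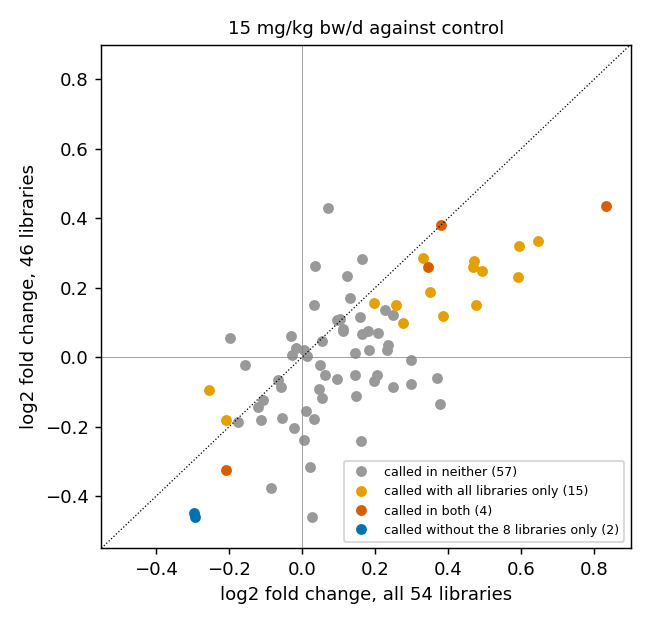
Log2 fold change of each of the 78 members at 15 mg/kg bw/d against control in the fit of all 54 libraries (x axis) and of the 46 without the libraries that stand apart (y axis), with the dotted line at equality. In both fits 4 members were called (Mrpl42, Mrpl39, Mrpl18 and Mrpl34), 15 with all libraries only, 2 without the 8 only, and 57 in neither.

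At 150 mg/kg bw/d 2 members were higher (2.56%) and none lower, against 1.49% and 0.682% of all features tested, and the median log2FC of the members was 0.01. Mrpl38, a mitochondria-specific protein of the central protuberance (GRCm38 chr11:116131817-116138868, minus strand), had 23.7, 35.1 and 46.1 as lowest, median and highest control value. Its values were 34.4, 38.1 and 43.2 at 1.5, 32.1, 38.7 and 53.2 at 15, and 37.4, 50.1 and 64.1 at 150 mg/kg bw/d. All 14 mice of the high dose were above the control median, and the groups overlapped between 37.4 and 46.1. The log2FC was 0.55 ± 0.08 (SE; adjusted p = 2.35e-05), a 1.46-fold increase, and 0.54 without the 8 libraries (adjusted p = 3.54e-05). Mrpl38 at 150 mg/kg bw/d was called under all 12 alternatives and whichever of the 28 mice was left out.

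At 15 mg/kg bw/d the log2FC of Mrpl38 was 0.26 (adjusted p = 0.0340), and 0.15 without the 8 libraries (adjusted p = 0.429). The call at 15 mg/kg bw/d was kept under 3 of 12 alternatives and in 19 of 27 leave-one-out fits (adjusted p up to 0.0792). The direct contrast of 15 with 150 mg/kg bw/d gave -0.29 ± 0.09 (SE; adjusted p = 0.0111), and that of 1.5 with 150 mg/kg bw/d gave -0.37 ± 0.09 (SE; adjusted p = 0.00596). The level of Mrpl38 was therefore higher at 150 mg/kg bw/d than in each of the other 3 groups.

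Mrpl45, at the exit tunnel, where the mitoribosome meets the inner membrane (GRCm38 chr11:97315716-97329920, plus strand), had 10.7, 12.8 and 15.1 in control mice and 13.6, 15.8 and 18.0 at 150 mg/kg bw/d. All 14 mice were above the control median, although the ranges overlapped (log2FC 0.26 ± 0.06 SE, adjusted p = 0.00720). It was called without the 8 libraries too (0.23, adjusted p = 0.0158), and not when every sample was rescaled to the same sum (0.17, adjusted p = 0.0960). Mrps25, a mitochondria-specific small-subunit protein, had 6.92, 10.5 and 15.3 in control mice and 4.22, 8.03 and 10.4 at 150 mg/kg bw/d, with no mouse above the control median. Its log2FC of -0.43 ± 0.13 (SE) missed the threshold (adjusted p = 0.0573) and passed it without the 8 libraries (-0.43, adjusted p = 0.0306). The last exon of Mrps25 overlaps exons of Nr2c2 on the opposite strand, and whether counting used strand is not given in the sources used here. In the fit without the 8 libraries Mrpl35 was also higher (0.38, adjusted p = 0.0470), making 3 higher and 1 lower, where 2.33% and 1.3% of all features were called.

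**Figure D4:**
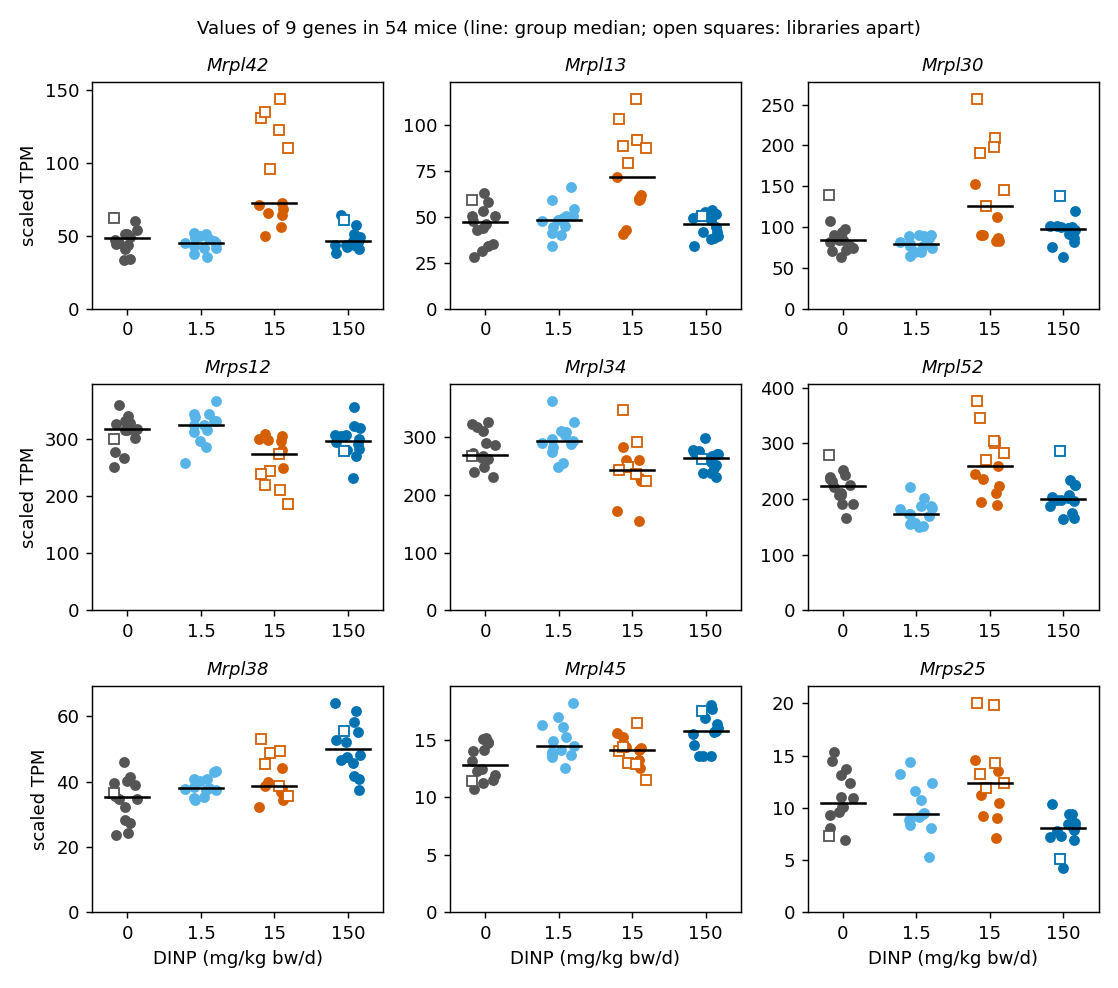
Scaled TPM of 9 members in each of the 54 mice against the DINP dose in mg/kg bw/d (0 is control), with a line at each group's median and open squares for the 8 libraries that stand apart. Mrpl42 is highest at 15 and Mrpl38 at 150 mg/kg bw/d, and the open squares at 15 mg/kg bw/d sit at the top for Mrpl42, Mrpl13 and Mrpl52 and mostly at the bottom for Mrps12.

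At 1.5 mg/kg bw/d no member was higher and 1 was lower (1.28%), against 0.674% and 0.525% of all features tested, with a median log2FC of 0.03. The 1 was Mrpl52, a mitochondria-specific large-subunit protein (GRCm38 chr14:54426909-54429756, plus strand). It had 166, 223 and 279.5 in control mice, 149, 174 and 222 at 1.5, 190.2, 259 and 376 at 15, and 164, 200.4 and 285 at 150 mg/kg bw/d. None of the 13 mice at 1.5 mg/kg bw/d was above the control median, and the ranges overlapped from 166 to 222. The log2FC of -0.32 ± 0.09 (SE) had an adjusted p of 0.0432, and the call was kept in 10 of 27 leave-one-out fits (adjusted p up to 0.0905). It was -0.30 (adjusted p = 0.00686) without the 8 libraries, where 1.3% of features were higher and 1.23% lower.

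The contrasts between doses share their samples with those above and are not independent of them. At 15 against 150 mg/kg bw/d 18 members were higher and 6 lower, against 10.1% and 9.85% of all features, and without the 8 libraries 5 were higher and 4 lower, against 3.97% and 4.35%. Mrpl42 was higher at 15 mg/kg bw/d in both fits (log2FC 0.84 and 0.43, adjusted p = 1.56e-06 and 0.00269), as were Mrpl41 (0.56 and 0.31, adjusted p = 9.79e-05 and 0.0401), Mrpl55 (0.58 and 0.38, adjusted p = 0.000101 and 0.0324) and Mrpl51, of the large subunit (0.51 and 0.36, adjusted p = 0.000142 and 0.0261). Mrpl17 (-0.33 and -0.27, adjusted p = 6.70e-05 and 0.00982) and Mrpl28 (-0.37 and -0.54, adjusted p = 0.0299 and 0.00431) were lower in both fits. Mrps25 (0.63, adjusted p = 0.000282), Mrpl13 (0.65), Mrps28 (0.46) and Mrps14 (0.50, and -0.04 without the 8) were called higher with all libraries and not called without the 8. Mrps12 (-0.18), Mrpl45 (-0.16) and Mrps5 (-0.30) were called lower with all libraries and not called without the 8. The calls of Mrps12 and Mrpl45 were kept in 14 and 10 of 27 leave-one-out fits.

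At 1.5 against 15 mg/kg bw/d 4 members were higher and 21 lower, where 10.5% and 10.9% of all features were called, and 3 and 4 without the 8 libraries, against 2.36% and 2.69%. Mrpl42 had the largest difference of the members called (log2FC -0.93, adjusted p = 7.22e-07, and -0.50, adjusted p = 0.00159, without the 8), and Mrpl52 was lower at 1.5 mg/kg bw/d in both fits (-0.56 and -0.33, adjusted p = 8.11e-06 and 0.00772). Mrpl17 and Mrpl34 were higher at 1.5 mg/kg bw/d in both (0.34 and 0.30 for Mrpl17, 0.30 and 0.41 for Mrpl34). Mrps14 (-0.72 and -0.14) and Mrps10 (-0.56 and -0.09), both of the small subunit, and Mrpl10 (0.21 and 0.23), at the base of the stalk, were called only with all libraries. At 1.5 against 150 mg/kg bw/d the count was 0 higher and 1 lower (Mrpl38), where 2.06% and 2.55% of all features were called. It was 3 higher and 2 lower without the 8 libraries, against 3.05% and 3.83%.

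Among the working sites of the large subunit, 3 of 7 central protuberance genes were higher at 15 mg/kg bw/d (Mrpl18, Mrpl38 and Mrpl55; median log2FC 0.23), where 7.57% of all features were. Without the 8 libraries only Mrpl18 of these 7 was (median 0.14), where 2.77% of features were higher. At 150 mg/kg bw/d Mrpl38 was the 1 central protuberance gene called, in both fits. Of 6 exit tunnel genes 1 was higher at 15 (Mrpl24) and 1 at 150 mg/kg bw/d (Mrpl45), with medians of 0.07 and 0.01. The shares of all features higher were 7.57% at 15 and 1.49% at 150 mg/kg bw/d. Mrpl24 was not called without the 8 libraries (log2FC 0.16, adjusted p = 0.256), where the exit tunnel genes counted 0 higher and 1 lower (Mrpl44) at 15 mg/kg bw/d. None of the 5 stalk genes, which recruit translation factors, was called at any dose in either fit. The 3 paralogs of bacterial protein S18, 1 in the large and 2 in the small subunit, differed in level. Mrps18c, of the small subunit, had a control median of 115 (91.3 to 145), Mrps18a, of the large subunit, 33.9 (23.9 to 48.6), and Mrps18b, of the small subunit, 16.1 (12.7 to 24.5). The control range of Mrps18c lay above those of both others, and the ranges of Mrps18a and Mrps18b overlapped only from 23.9 to 24.5. None of the 3 was called at any dose (log2FC -0.07 to 0.22).

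The partner genes of the mitoribosome were taken from lists chosen with earlier results of these data known. Of all features tested 0.674% were higher and 0.525% lower at 1.5 mg/kg bw/d. The shares were 7.57% and 6.61% at 15, and 1.49% and 0.682% at 150 mg/kg bw/d. Without the 8 libraries they were 1.3% and 1.23%, 2.77% and 2.55%, and 2.33% and 1.3% in order of dose. Of 5 mitoribosomal proteins with other symbols, 2 were higher at 15 mg/kg bw/d: Aurkaip1 (control 41.3 to 63.4, median 50.8, and 52.3 to 80.3, median 60.6; log2FC 0.26, adjusted p = 0.00333) and Ptcd3 (log2FC 0.43, adjusted p = 0.0134). Of 27 assembly factors 1 (3.70%) was higher and 2 (7.41%) were lower at 15 mg/kg bw/d, with a median log2FC of -0.03. The higher one was Mterf3, a factor in mitoribosome biogenesis (log2FC 0.57, adjusted p = 0.000390), and the lower ones were Mpv17l2 (-0.46, adjusted p = 0.000712) and the rRNA methyltransferase gene Tfb1m (-0.53, adjusted p = 0.00776). Leaving out the 8 libraries, Aurkaip1 (0.24, adjusted p = 0.0412) and Mterf3 (0.46, adjusted p = 0.0351) were still called and the other 3 were not, and at 150 mg/kg bw/d the assembly gene C1qbp was called higher in that fit alone (0.17, adjusted p = 0.0261).

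Of 14 tested mitochondrial translation factors, Mtres1 was higher at 1.5 (log2FC 0.31, adjusted p = 0.0426) and the release factor gene Mtrf1 at 15 mg/kg bw/d (0.54, adjusted p = 0.00802). At 15 mg/kg bw/d 7.14% of these 14 genes were higher, against 7.57% of all features tested. The shares higher were 5.56% of tRNA synthetases, 6.67% of the mitochondrial DNA genes and 33.3% of the import and mass genes below. Leaving out the 8 libraries kept the call of Mtres1 (0.32, adjusted p = 0.0140) and not that of Mtrf1 (0.39, adjusted p = 0.195). Of 18 mitochondrial tRNA synthetases 1 was called, Nars2 at 15 mg/kg bw/d (0.37, adjusted p = 0.0195), which was not called without the 8 libraries (0.16, adjusted p = 0.463). Of 15 genes of mitochondrial DNA expression and maintenance 1 was called, Ssbp1, the single-stranded DNA binding protein. Its values were 8.83, 13.5 and 16.6 in control mice and 11.3, 23.9 and 40.6 at 15 mg/kg bw/d (log2FC 0.82 ± 0.12 SE, adjusted p = 7.34e-06), and the call held without the 8 libraries (0.54, adjusted p = 0.004), where Supv3l1 was also called, at 1.5 mg/kg bw/d (0.34, adjusted p = 0.0496). Timm44, of the import motor, was lower at 1.5 (-0.42, adjusted p = 0.00908) and 15 mg/kg bw/d (-0.49, adjusted p = 0.000149), in both cases also without the 8 libraries, and was 1 of 7 import and mass genes of 15 called at 15 mg/kg bw/d (5 higher, among them the chaperonin gene Hspd1 with 0.25, and 2 lower). In the fit of 46 libraries 1 of the 15 was higher at 15 mg/kg bw/d (Hspd1, 0.26, adjusted p = 0.0275) and 2 were lower, Timm44 (-0.33, adjusted p = 0.0344) and Phb1, a prohibitin (-0.33, adjusted p = 0.00646, and -0.12, adjusted p = 0.357, with all libraries). At 1.5 mg/kg bw/d Phb2, the other prohibitin gene, was higher in that fit only (0.19, adjusted p = 0.0492). Phb1, Phb2, Asgr1, Supv3l1 and C1qbp are named because their calls changed with the libraries.

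Of the 13 messages that the mitoribosome translates, 2 (15.4%) were higher and 2 (15.4%) lower at 15 mg/kg bw/d. Of all features tested 7.57% were higher and 6.61% lower at that dose. There ND3 (log2FC 0.63, adjusted p = 0.0219) and COX2 (0.60, adjusted p = 0.0392) were higher and ND2 (-0.54, adjusted p = 0.00243) and ND4L (-0.40, adjusted p = 0.00359) lower, and none of the 4 was called without the 8 libraries. At 150 mg/kg bw/d COX1 was higher (0.29, adjusted p = 0.00974) and at 1.5 mg/kg bw/d ND4 (0.37, adjusted p = 0.0326). Both calls held without the 8 libraries (COX1 0.30, adjusted p = 0.00361, and ND4 0.38, adjusted p = 0.00228). In that fit the 13 messages counted 1 higher (ND4) and 3 lower (ATP8, COX3 and ND3) at 1.5 mg/kg bw/d, where 1.3% and 1.23% of all features were called. At 15 mg/kg bw/d 1 was higher (ND4) and 0 lower, where 2.77% and 2.55% of all features were. At 150 mg/kg bw/d 4 were higher (ATP8 with 0.41, ND5 with 0.32, COX1 and ND4) and 0 lower, where 2.33% and 1.3% of all features were. ATP8, COX3 and ND5 are named because their calls changed with the libraries. Of 10 tested regulators of mitochondrial genes, Nrf1 was lower at 15 mg/kg bw/d (-0.27, adjusted p = 0.0299, and -0.33, adjusted p = 0.0766, without the 8 libraries) and Ppara, the receptor for fatty acids, was higher at 150 mg/kg bw/d (0.58, adjusted p = 0.00187, and 0.52, adjusted p = 0.00619, without the 8 libraries). Gabpa and Yy1 were not called at any dose.

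Other large gene families moved with the members at 15 mg/kg bw/d. Of 79 tested cytosolic ribosomal protein genes 36 were higher and none lower (median log2FC 0.33), and of 81 nuclear oxidative phosphorylation subunits 36 were higher and 1 lower (median 0.24). Of all features tested 7.57% were higher and 6.61% lower. In the fit of 46 libraries the counts were 12 higher and 4 lower (median 0.08) and 11 higher and 6 lower (median 0.05). In that fit 2.77% of all features were higher and 2.55% lower, and 3 of the 78 members were higher and 3 lower. Across genes, the log2FC at 15 mg/kg bw/d tended to be lower where the GC content of the transcript was higher. Spearman rho was -0.26 over the 78 members and -0.24 over 9856 features, and -0.05 and -0.10 with transcript length. These are descriptions across genes, which are not independent replicates, and the part of base composition in the calls was not tested.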

How the data were processed

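Total liver RNA was made into QuantSeq 3′ mRNA-Seq V2 FWD libraries; the submitters' notes name STAR, RSEM, Salmon and GRCm38. The deposited values are a signal that the authors named TPM and scaled between samples: in each library they are whole multiples of 1 step (0.764 to 1.11), and the whole numbers sum to 948342 to 980641. They are not counts, so the depth is unknown and no count test was run, although the study used DESeq2. TPM divides by transcript length, whereas 3′ libraries read only transcript ends, which affects levels compared between genes.

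Features with a mean of at least 1 were tested on log2(value + 1) in R 4.3.3 with limma 3.58.1 (lmFit, eBayes with trend), all 4 groups in 1 fit, with Benjamini-Hochberg adjustment over all of them and a threshold of 0.05. This scale understates the change of low genes. The members and lists were chosen with earlier results of these data known, and lists received no test. Named were members called in any of 6 contrasts (up to 8 per direction), the 3 highest and the 3 lowest, the 3 Mrps18 genes, and called genes of the lists (up to 3 per direction); not all values are given. Each library is 1 mouse, so p-values measure the spread between mice, pooled over the 4 groups. The SD of the member mean was 0.17 at 15 mg/kg bw/d and 0.08 in control mice. The pooled spread therefore does not describe the 15 mg/kg bw/d group alone. Alternatives were pseudocounts of 0.1 and 5, other filters and scalings, 2 groups alone, quality weights, a replicate block, a log2FC threshold of 0.5, a Wilcoxon rank-sum test and each mouse left out; the fit without 8 libraries was added after the data were seen. The fit was run on simulated data with independent noise in each library. Those data hold no set of libraries that stands apart, so they do not show how the fit behaves with the 8. Positions are from GENCODE M21 on GRCm38, and promoters from RefSeq. Reads of mitoribosomal pseudogenes could not be separated here.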

Additional observations from a re-analysis of the deposited data

How the results depend on the processing

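The counts and medians that moved do so as follows. Without the 8 libraries that stand apart, an alternative chosen after the data were seen, 3 members were higher at 15 mg/kg bw/d with a median of 0.020, 1 was lower at 150 mg/kg bw/d, and 9, 7 and 5 were called at 15 against 150, 1.5 against 15 and 1.5 against 150 mg/kg bw/d. With a log2FC beyond 0.5 required, 4 members were higher and 0 lower at 15, 1 higher at 150 and 0 lower at 1.5 mg/kg bw/d, and 7, 12 and 0 were called between doses in the same order. The Wilcoxon rank-sum test with Benjamini-Hochberg adjustment called 8 higher at 15 mg/kg bw/d, 14 at 15 against 150 and 5 at 1.5 against 150 mg/kg bw/d. No member was lower at 1.5 mg/kg bw/d with no filter or with every sample rescaled to the same sum. That rescaling gave 1 higher and 2 lower at 150 mg/kg bw/d, a median of -0.0765 (-0.09 for all features), and 6 called at 1.5 against 150 mg/kg bw/d. One member was lower at 150 mg/kg bw/d with a minimum mean of 5, quantile normalization, the 2 groups alone or quality weights, and 2, 2, 3 and 4 were called at 1.5 against 150 mg/kg bw/d under these 4. The 2 groups alone called 15 at 15 against 150 mg/kg bw/d. The cause of these changes was not tested. Among the alternatives, shares of all features called are given above only for the fit without the 8 libraries. The other counts in this section therefore do not show whether the members differed from all features.

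The replicate numbers do not pair the mice: over 79 same-numbered pairs the correlation of deviations from the group means averaged -0.0025 (-0.359 to 0.243). With the number as a replicate block, 0 members were lower at 1.5 and 1 was lower at 150 mg/kg bw/d, against 1 and 0 without it, and no other count of members moved by over 1.5 times.

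Leaving out 1 mouse at a time gave 14 to 21 higher and 2 to 4 lower at 15 mg/kg bw/d (median 0.10 to 0.13), 2 higher and 0 to 1 lower at 150 (median -0.01 to 0.03), and 0 higher and 0 to 1 lower at 1.5 mg/kg bw/d (median 0.02 to 0.05). Between doses it gave 19 to 26, 22 to 29 and 1 to 3 called at 15 against 150, 1.5 against 15 and 1.5 against 150 mg/kg bw/d. Where a named member was called in the main fit or in the alternative, 1 changed sign under any alternative. It was Mrps14 at 15 against 150 mg/kg bw/d, with a log2FC of -0.039 without the 8 libraries. Sign changes of members called in neither fit were not counted. Among them, at 15 mg/kg bw/d against control, were Mrps14 (0.38, and -0.13 without the 8) and Mrps10 (0.37 and -0.06). The sequencing depth is unknown, so sampling error of the low-level members cannot be given.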
